A study of Mus musculus with 6 samples.

Results

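The genes that write, copy and remove DNA methylation were followed in mouse embryonic stem (ES) cells in which the transcription factor Sim2 was switched on. The set was chosen by name and holds the DNA methyltransferase genes Dnmt1, Dnmt3a, Dnmt3b and Dnmt3l, the maintenance cofactor Uhrf1, the dioxygenases Tet1, Tet2 and Tet3, and the glycosylase Tdg. All 9 were found among the 22602 genes of the expression table. Messenger RNA was sequenced from 6 cultures. 3 of them were Sim2-expressing clones (A6, B8 and C4), each from 1 culture. They carry a Flag-tagged mouse Sim2 transgene in a ROSA-TET system, in which a tetracycline-regulated transactivator drives a modified CMV promoter and a Venus reporter follows the transgene. The other 3 (EB3-0, EB3-1 and EB3-2) were separate cultures of EBRTcH3 (EB3), the parental line, which has the transactivator and no Sim2 transgene. By the study's account, Venus was induced in EB3 as well as in the clones. All 6 were grown in serum with leukaemia inhibitory factor and then cultured tetracycline-free for 26 h, so a clone differs from EB3 both in SIM2 and in its own history as a clone.

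DNA methylation is set on cytosines of CpG pairs. DNMT3A and DNMT3B place it on unmethylated DNA, and DNMT3L, which has no catalytic activity of its own, binds and stimulates them. UHRF1 recognises the hemimethylated sites left by replication and brings DNMT1, which copies the mark to the new strand. The TET enzymes oxidise methylcytosine to hydroxymethylcytosine and further forms, and TDG cuts out the most oxidised forms so that base excision repair can restore cytosine. ES cells grown in serum express high levels of the de novo enzymes and of Tet1 and Tet2, and the balance between writing and erasing differs between naive and primed pluripotent states.

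The table gives reads per kilobase of cDNA, scaled to the reads of the library (RPKM), and the depth behind it was 25095861 to 28269340 reads per library. Sim2 itself was at 196, 212 and 168 RPKM in A6, B8 and C4, against 0.130, 0.0917 and 0.104 in EB3-0, EB3-1 and EB3-2, as the labels say. The markers of ES cells were high throughout, led by Pou5f1, and their summed level was 3884 to 4031 RPKM in the clones and 4068 to 4726 in EB3. A list of 12 markers of differentiated cells and fibroblasts summed to 18.9 to 21.7 RPKM in the clones and 16.8 to 19.1 in EB3, mostly Thy1, and none of the 12 was at 0 in every library. Col3a1, a fibroblast collagen gene, was among the lowest of these markers, at most at 0.0403 RPKM. Pax6 was higher, at 1.64, 3.44 and 4.79 RPKM in A6, B8 and C4 and at 2.93, 3.67 and 4.28 in EB3. Gata4, Sox17 and Cdx2 were higher in every clone than in every EB3 library, and Elf5 was lower in every clone. All of these last genes were below 1 RPKM and were not tested. For the other markers on the list the groups overlapped. EB3-0 stood apart from EB3-1 and EB3-2 in a way that followed cDNA length. Its effect is given with the Tet genes, which it touches most. EB3-1 and EB3-2 were nearly alike, so values with both averaged as 1 library are given for Dnmt3l and for the called primed pluripotency markers.

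Every gene of the set was detected in every library, over about 3 orders of magnitude in RPKM. Dnmt3l was the most abundant, with a mean of 228 ± 34.6 RPKM in the clones and 334 ± 7.30 in EB3 (SD, n = 3 each, as for all values that follow). Uhrf1 came next at 140 ± 10.6 and 131 ± 7.68 RPKM, then Dnmt3b at 89.7 ± 8.86 and 95.9 ± 6.13. These neighbours in the order kept their places in all 3 libraries of both groups. Tet1 followed at 77.4 ± 6.87 and 73.4 ± 32.6 RPKM, and Dnmt1 at 64.6 ± 2.16 and 59.3 ± 1.70. Tet1 was above Dnmt1 in all 3 clones but in 2 of the 3 EB3 libraries, so their order in EB3 did not hold. Dnmt3a, at 28.2 ± 6.34 and 28.9 ± 1.97 RPKM, and Tet2, at 21.3 ± 1.49 and 23.0 ± 8.87, could not be ordered either. Dnmt3a was the higher of the pair in 2 of 3 clones and in 1 of 3 EB3 libraries. Tet3, the TET gene best known from oocytes and neurons, was far lower at 0.817 ± 0.174 and 0.710 ± 0.226 RPKM. Tdg was lowest, at 0.397 ± 0.0567 and 0.377 ± 0.0610 RPKM.

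**Figure D1:**
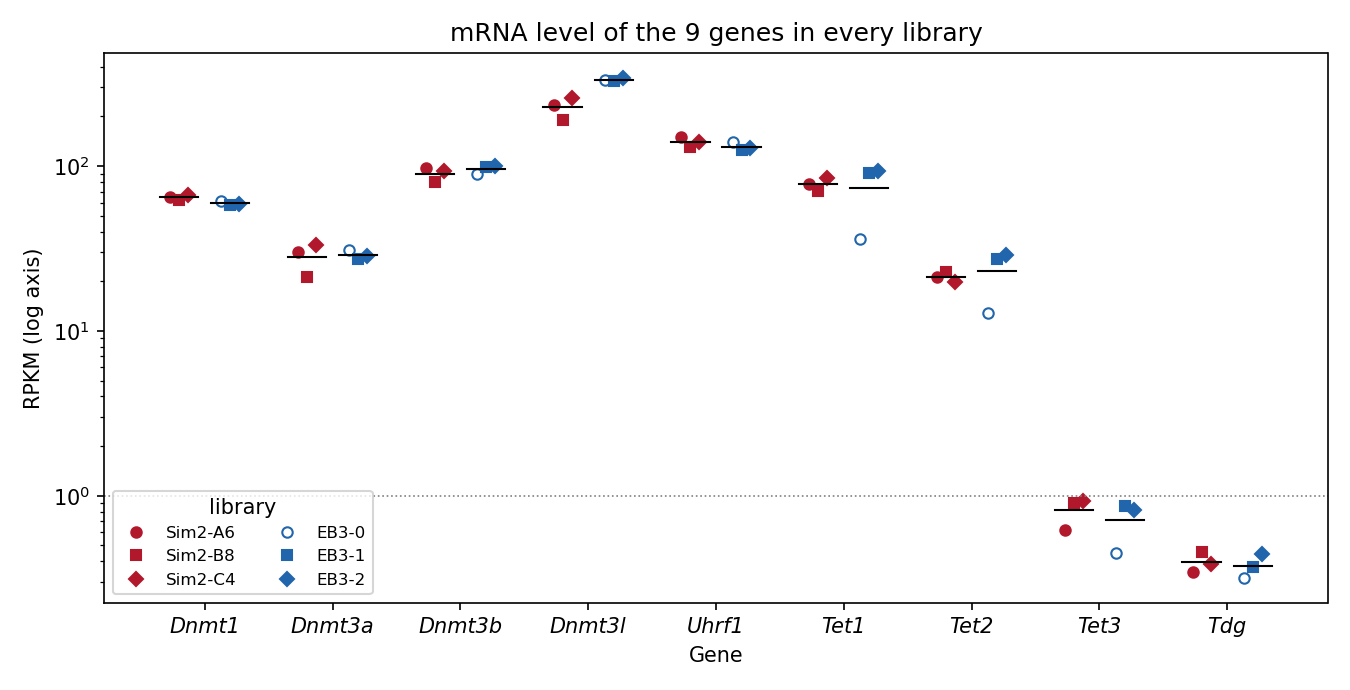
Levels of the 9 genes (RPKM, log axis) in each library of the Sim2 clones (red) and of EB3 (blue, EB3-0 open), with a black line at each group mean and a dotted line at 1 RPKM. Dnmt3l lies lower in the 3 clones (190 to 257) than in EB3 (327 to 342), and the EB3-0 points of Tet1, Tet2 and Tet3 lie below the rest.

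The low Tdg value needs its sequence context. Tdg lies at chr10:82092583-82113239 of mm9 (plus strand), and its spliced transcript has near-identical copies in the genome, of the kind that processed pseudogenes form. Alignment of the Tdg transcript found 98.6% identity over 3026 bases at chr15:82346686-82349711, 99.3% over 2935 bases at chr7:83388071-83391005 and 99.3% over 2805 bases at chr10:41772360-41775162. A further pair of alignments of 1254 and 508 bases lay on chromosome 19 (33746768 to 33748526). Of all stretches of 100 bases in the transcript, 66.0% occurred unchanged elsewhere in the genome and 85.1% with at most 2 mismatches. The stretch at chr10:82111323-82111422, from a coding exon, is printed here to show how little tells the copies apart. It is followed by the matching stretches of the copies at chr10:41773962-41774061 (minus strand), chr15:82347965-82348064 (plus), chr7:83389675-83389774 (minus) and chr19:33747861-33747960 (minus), with capitals at the bases that differ from Tdg.

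Tdg: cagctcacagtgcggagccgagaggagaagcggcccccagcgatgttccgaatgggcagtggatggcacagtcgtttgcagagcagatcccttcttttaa
copy on chromosome 10: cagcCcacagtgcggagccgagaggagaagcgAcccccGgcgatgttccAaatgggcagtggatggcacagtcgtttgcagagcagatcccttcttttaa
copy on chromosome 15: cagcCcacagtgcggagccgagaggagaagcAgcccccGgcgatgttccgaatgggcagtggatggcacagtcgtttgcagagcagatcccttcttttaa
copy on chromosome 7: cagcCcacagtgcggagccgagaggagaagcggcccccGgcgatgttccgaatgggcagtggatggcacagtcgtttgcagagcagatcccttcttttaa
copy on chromosome 19: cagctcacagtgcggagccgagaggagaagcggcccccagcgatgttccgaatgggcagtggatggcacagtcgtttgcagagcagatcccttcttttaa

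The copies on chromosomes 10, 15 and 7 differ from Tdg at 4, 3 and 2 of these 100 bases, and the copy on chromosome 19 at 0. How the study treated reads with several equally good positions was not stated, so the 28 to 38 Tdg reads per library may be a part of the reads that Tdg gave, and its level is uncertain. The table also lists a row named Gm9855 over nearly the same interval, at 0.261 to 0.402 RPKM, while the mm9 annotation used here places Gm9855 within the copy at chr10:41772360-41775162, so it is unclear which locus that row measured. The exact Poisson interval of 28 reads in A6 was 18.6 to 40.5, and that of 38 reads in B8 was 26.9 to 52.2. These intervals cover counting error only, and the libraries did not differ beyond it. Uhrf1 (chr17:56442760-56462909) had 1 copy with 97.7% identity over 2590 bases at chrX:118447609-118450192, and 10.2% of its stretches of 100 bases recurred unchanged and 48.4% with at most 2 mismatches, so a share of its reads may be uncertain in the same way. Of the other members, Dnmt1, Dnmt3a, Dnmt3l and Tet3 had no recurring stretch, and Dnmt3b, Tet1 and Tet2 had 1.30%, 0.533% and 0.0881%.

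The study asked which transcripts change when SIM2 is expressed. It compared the same groups with edgeR, another model, and reported more changed genes in both directions than were called here. The calls below are those of limma and not the study's own. On the log2(RPKM + 0.5) scale, limma called 81 of 11595 tested genes at an adjusted p under 0.05 (0.699%), 40 higher and 41 lower in the clones. Of the 7 members with a mean of at least 1 RPKM, and so tested, 0 were called. 1 member, Dnmt3l, had an unadjusted p under 0.05, as did 17.8% of all tested genes. The groups did not overlap for 2 of the 7, Dnmt3l and Dnmt1, against 26.1% of all tested genes. The median difference over the 7 was -0.03 and that over all tested genes -0.01. In RNA from whole cultures, fewer cells that express a gene and less of its RNA per cell cannot be told apart.

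Dnmt3l (chr10:77505032-77526360, plus strand, cDNA of 1815 bases) gave the smallest p of the set. It was at 236, 190 and 257 RPKM in A6, B8 and C4 and at 334, 327 and 342 in EB3-0, EB3-1 and EB3-2. Every clone lay below every EB3 library, with the clones spread more widely than EB3. The difference was -0.56 ± 0.12 (log2, SE), a clone level 0.676 times that of EB3 with a 95% interval of 0.557 to 0.821. It missed the threshold over all tested genes (limma, adjusted p = 0.0818, unadjusted p = 0.00158), and by p it ranked 224th of the 11595 genes. Permuting the group labels (exact, 2-sided) gave p = 0.1, which is as low as this design can reach. With the trend of each library with cDNA length removed, Dnmt3l was called lower (limma, -0.53, adjusted p = 0.0446) beside 2.49% of all tested genes called in that fit. With GC content and length trends removed it was also called (limma, -0.57, adjusted p = 0.0496, beside 1.84% of tested genes). With EB3-1 and EB3-2 averaged as 1 library, limma's adjusted p was 0.267. The direction was the same in all 16 alternatives, from -0.66 to -0.44.

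Dnmt3l shares bases with its neighbour Aire. In genomic coordinates, introns included, the first 1294 bases of the gene overlap Aire, the autoimmune regulator gene, on the opposite strand (chr10:77492776-77506325). How much of the overlap is exon was not examined. Without strand-specific counting, reads of shared exon bases cannot be assigned to either gene. Aire had 536 to 1080 reads per library in all, and Dnmt3l had 8877 to 16544. Aire was at 13.5, 10.8 and 11.6 RPKM in the clones and at 16.8, 19.0 and 21.5 in EB3, so it too lay lower in every clone, and its difference of -0.65 ± 0.13 missed the threshold (limma, adjusted p = 0.0738). Icosl, the next gene downstream of Dnmt3l, differed by -0.28 (limma, adjusted p = 0.288). Over the 10 tested genes on each side of Dnmt3l, 10 of 20 were lower in the clones, 0 were called, and the median difference was -0.02. The groups did not overlap for 4 of the 20, against 26.1% of all tested genes. These were Sumo3, Lrrc3, Aire and Icosl, each lower in every clone than in every EB3 library. Whether the Dnmt3l values have a part in common with these neighbours was not tested.

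The 3 tested genes whose log2 values over the 6 libraries were most like those of Dnmt3l were Trub1, AU018091 and Hnrnpf, with Pearson's r of 0.996, 0.995 and 0.995. The 6 points share their libraries and fall into 2 groups, and 4.55% of tested genes had an r of at least 0.9 with Dnmt3l, so these coefficients are a description only. Hnrnpf, a splicing factor of the hnRNP family, was at 155, 146 and 161 RPKM in the clones and at 170, 170 and 174 in EB3. Among the members the r with Dnmt3l was 0.69 for Dnmt3b, 0.53 for Dnmt3a and -0.61 for Dnmt1. Trub1, AU018091 and Hnrnpf were picked for the highest r among all tested genes, so no member could be closer to Dnmt3l.

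SIM2 pairs with ARNT, and ACGTG is the core of the element described for SIM with ARNT. In these cells the study found that most motifs enriched at SIM2 sites resembled those of OCT4, SOX2, NANOG and KLF4. Few of its SIM2 sites lay in promoters. In promoters from RefSeq (GRCm38.p6, 250 bases before to 50 after each start), all 9 members were matched, with 16 starts. The letters ACGTG, read on both strands, occurred in 5 of these 16, which belong to 5 members (Dnmt3a, Dnmt3l, Uhrf1, Tet2 and Tdg). They were held by 19.6% of all 32851 RefSeq promoters. Of the 3 starts of Dnmt3l, the window at chr10:78049592-78049891 (GRCm38.p6, plus strand) held CACGTG, in which the match on each strand overlaps the other, and the other 2 windows held none. It is printed because Dnmt3l had the smallest p, with the match in capitals.

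Dnmt3l promoter: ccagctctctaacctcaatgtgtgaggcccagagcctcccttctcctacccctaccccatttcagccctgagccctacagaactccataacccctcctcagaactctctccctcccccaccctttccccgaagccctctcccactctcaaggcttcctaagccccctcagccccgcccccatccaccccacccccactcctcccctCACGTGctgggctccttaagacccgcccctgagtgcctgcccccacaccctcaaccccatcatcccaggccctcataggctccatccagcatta

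A match is a description of the letters, and binding at it was not analysed here.

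The maintenance pair differed little between the groups. Dnmt1 (chr9:20711650-20757067, minus strand) was at 65.0, 62.3 and 66.5 RPKM in A6, B8 and C4 and at 61.3, 58.2 and 58.6 in EB3-0, EB3-1 and EB3-2. Every clone was above every EB3 library, by a narrow margin between B8 and EB3-0. The difference of 0.12 ± 0.08 was not called (limma, adjusted p = 0.468), and its 95% interval bounds the clone level at 0.960 to 1.23 times that of EB3. Uhrf1 was at 151, 130 and 139 RPKM in the clones and at 139, 125 and 128 in EB3, and the groups overlapped. Its difference was 0.10 ± 0.09 (limma, adjusted p = 0.640), with an interval of 0.921 to 1.24 times the EB3 level. Changes of 1.25 times or more in the mRNA of either maintenance gene lay outside these intervals.

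Neither catalytic de novo enzyme was called, and Dnmt3a was spread widely among the clones. Dnmt3b (chr2:153475190-153513466, plus strand) was at 96.7, 79.8 and 92.8 RPKM in the clones and at 89.0, 98.3 and 101 in EB3. Its difference was -0.10 ± 0.10 (limma, adjusted p = 0.661), with an interval of 0.794 to 1.10 times. Dnmt3a (chr12:3806980-3914443, plus strand) was at 30.1, 21.1 and 33.4 RPKM in the clones and at 31.1, 27.2 and 28.5 in EB3. B8 was lowest and C4 highest of all 6, so the difference of -0.06 ± 0.16 (limma, adjusted p = 0.887) averages clones on both sides of EB3. Without B8 it was 0.13 (limma, adjusted p = 0.629). The SD of Dnmt3a among the clones was 0.34 on the log2 scale, above that of 88.1% of tested genes, against 0.10 in EB3. Dnmt3a lies near the start of chromosome 12. The 16 tested genes beside it (6 before, 10 after) had a median B8 value 0.07 above that of the other clones, while Dnmt3a itself was 0.57 below them.

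B8 gave the lowest of the 3 clone values for 6 of the 7 tested members, all but Tet2, while 40.3% of all tested genes were lowest in B8. These members share 1 culture and are not independent. Beside them, 13 of 14 S phase genes on a list of replication factors were also lowest in B8. Mcm5, a subunit of the replicative helicase, was at 240, 168 and 213 RPKM in A6, B8 and C4, and Rrm2, a subunit of ribonucleotide reductase, at 214, 154 and 186. The part of S phase genes in the B8 values was not tested. As a group comparison none of the 14 was called, and their median difference was 0.06.

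The Tet genes were set apart by 1 control library. Tet1 (chr10:62267318-62342762, minus strand, cDNA of 13986 bases) was at 77.5, 70.5 and 84.3 RPKM in A6, B8 and C4, and at 35.8, 90.6 and 93.9 in EB3-0, EB3-1 and EB3-2. Tet2 (chr3:133126641-133207354, minus strand, cDNA of 9181 bases) was at 21.3, 22.7 and 19.7 RPKM in the clones and at 12.8, 27.4 and 28.9 in EB3. For both genes the clones lay above EB3-0 and below EB3-1 and EB3-2. Tet3 (chr6:83312368-83391672, minus strand, cDNA of 10906 bases) was at 0.617, 0.900 and 0.934 RPKM in the clones and at 0.450, 0.861 and 0.819 in EB3, from 134 reads in EB3-0 to 288 in C4. EB3-0 thus held 38.8%, 45.6% and 53.6% of the mean of EB3-1 and EB3-2 for Tet1, Tet2 and Tet3.

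With all 6 libraries the Tet1 difference was 0.20 ± 0.33 (limma, adjusted p = 0.796) and the Tet2 difference -0.03 ± 0.27 (limma, adjusted p = 0.968). The intervals were wide, from 0.681 to 1.93 times the EB3 level for Tet1 and from 0.634 to 1.51 times for Tet2, so a change of 1.5 times was not detectable for either. Without EB3-0 both were lower in the clones. Tet2 then differed by -0.40 ± 0.09 and lay at the threshold without passing it (limma, adjusted p = 0.0502), and Tet1 by -0.25 ± 0.09 (limma, adjusted p = 0.124), in a fit that called 5.99% of all tested genes. With the length trend removed and EB3-0 kept, the values were -0.19 for Tet2 (limma, adjusted p = 0.506) and -0.05 for Tet1 (limma, adjusted p = 0.894). The direction for Tet1 thus turned with the treatment of EB3-0. Tet3 and Tdg were below the filter. In a fit with no filter, which called 0.156% of 17963 genes, Tet3 differed by 0.13 ± 0.19 (limma, adjusted p = 0.788) and Tdg by 0.03 ± 0.10 (limma, adjusted p = 0.910).

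**Figure D2:**
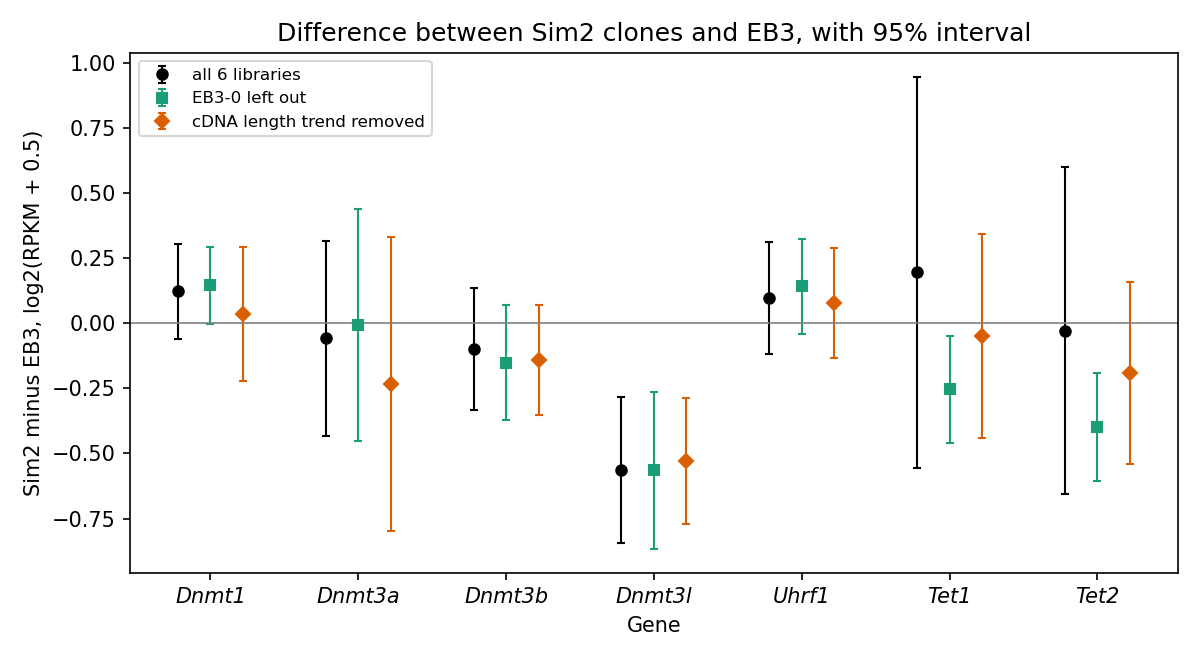
Difference between the Sim2 clones and EB3 in log2(RPKM + 0.5), with its 95% interval, for the 7 tested genes under all 6 libraries (black), without EB3-0 (green) and with the cDNA length trend removed (orange). Dnmt3l stays between -0.57 and -0.53, while Tet1 goes from 0.20 to -0.25 and Tet2 from -0.03 to -0.40 when EB3-0 is left out.

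The length of the cDNA moved with these values. Across tested genes, the median difference of EB3-0 from the mean of EB3-1 and EB3-2 fell from 0.24 for cDNAs of 500 to 2000 bases to -0.66 for the 411 genes of 8000 bases or more (log2). Tet1 and Tet2 were at -1.35 and -1.10. Of the long genes, 1.95% were lower than Tet1 and 10.7% lower than Tet2. Dnmt3a did not follow them. Its cDNA of 9735 bases is longer than that of Tet2, yet EB3-0 was 0.16 above the other EB3 libraries, higher than 99.0% of the long genes. Dnmt1, Dnmt3b, Dnmt3l and Uhrf1, with cDNAs of 1815 to 5876 bases, were between -0.16 and 0.14. The part of this length trend in the Tet values was not tested beyond the fit with the trend removed.

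**Figure D3:**
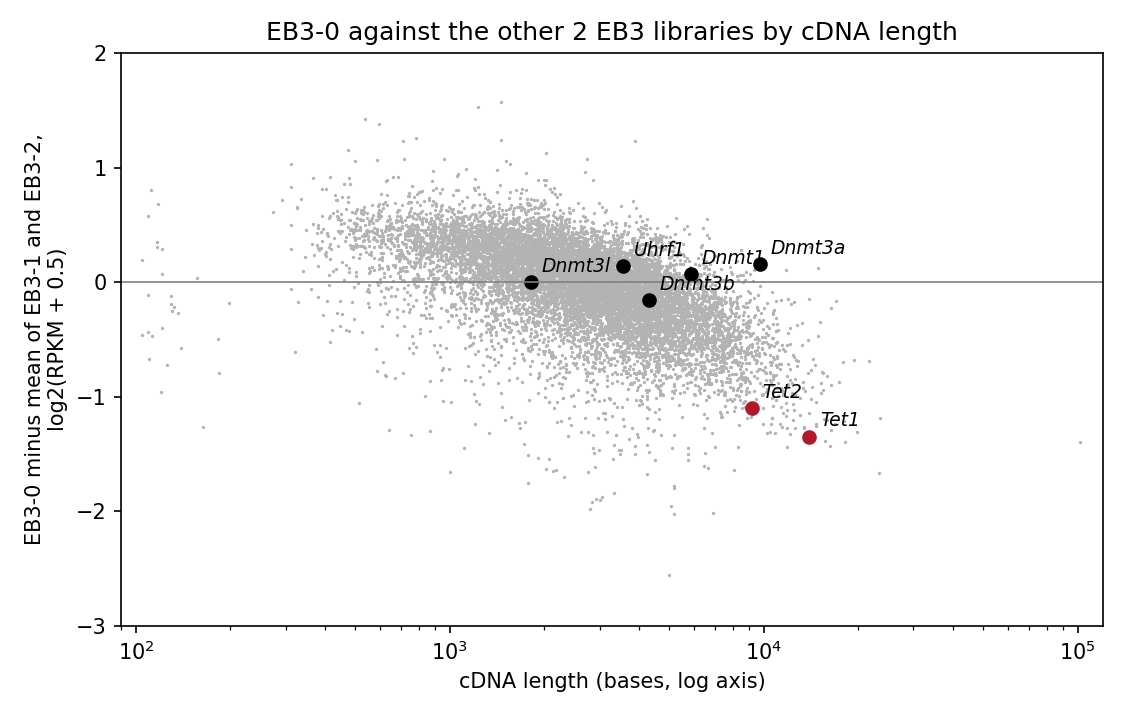
EB3-0 minus the mean of EB3-1 and EB3-2 in log2(RPKM + 0.5) against cDNA length (bases, log axis) for all 11595 tested genes (grey), with the 7 members in black and, for Tet1 and Tet2, in red. The cloud falls with length, Tet1 (-1.35) sits at its lower edge, Tet2 (-1.10) in its lower part, and Dnmt3a (0.16) above most genes of its length.

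Ratios within a library do not depend on its depth. They can still carry the cDNA length trend of EB3-0, since the genes set against each other differ in length. EB3-0 was the highest or the lowest of the EB3 libraries in each ratio, and the part of the trend in this was not tested. The ratio of Dnmt3l to the sum of Dnmt3a and Dnmt3b, the cofactor against the enzymes it stimulates, was 1.86, 1.88 and 2.04 in A6, B8 and C4 and 2.78, 2.61 and 2.65 in EB3-0, EB3-1 and EB3-2. The clones were all lower, with means of 1.93 ± 0.0983 and 2.68 ± 0.0899, and B8, which was low in Dnmt3l and in both enzymes, lay between the other clones on this measure. The sum of Dnmt3a and Dnmt3b against Dnmt1, de novo against maintenance, was 1.95, 1.62 and 1.90 in the clones and 1.96, 2.16 and 2.20 in EB3. These groups were also apart, though A6 and EB3-0 nearly met. Tet2 against Tet1 was 0.276, 0.322 and 0.234 in the clones and 0.358, 0.303 and 0.307 in EB3, and the groups overlapped. 2-sided exact permutation tests gave p = 0.1, 0.1 and 0.3 in that order, where 0.1 is the smallest possible, and 0.15, 0.15 and 0.3 after adjustment over the 3 ratios, so none passed.

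**Figure D4:**
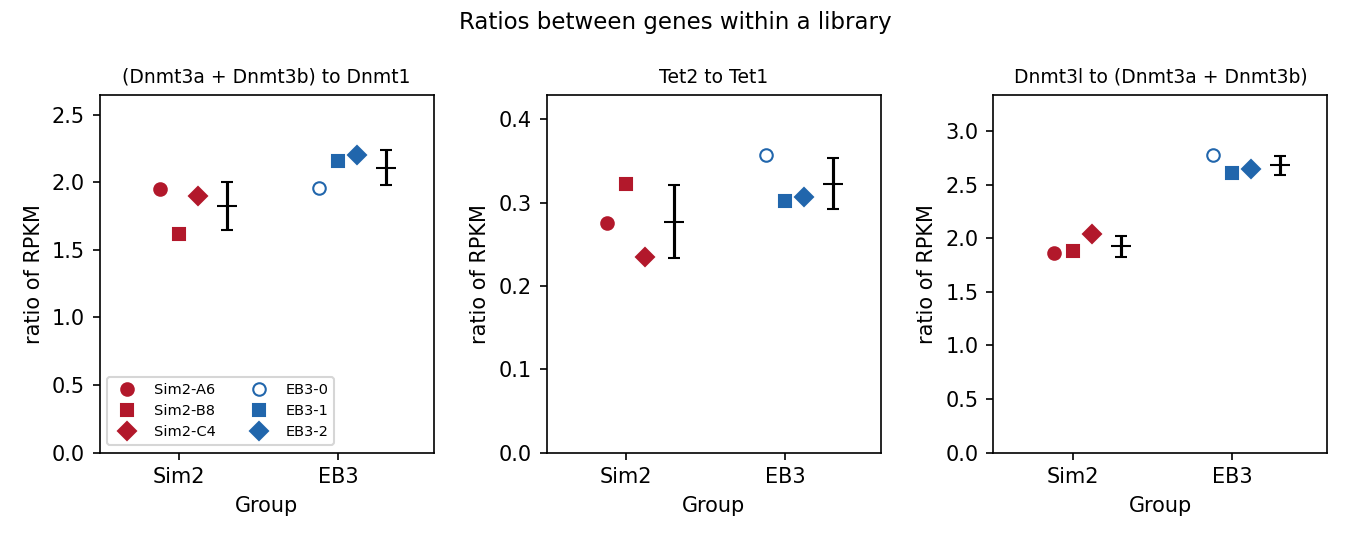
Ratios of RPKM between members within each library of the Sim2 clones (red) and EB3 (blue, EB3-0 open), with the mean and SD of each group in black. The ratio of Dnmt3l to Dnmt3a plus Dnmt3b is 1.86 to 2.04 in the clones and 2.61 to 2.78 in EB3, and the other 2 ratios lie closer together.

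The wider pathway was read from 5 lists that hold 53 genes, of which 50 were tested. Of these 50, 0 were called by limma, 10 had an unadjusted p under 0.05 (20.0%, beside 17.8% of all tested genes), 23 were higher and 27 lower in the clones, and the median difference was -0.04. The smallest adjusted p was 0.123.

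Among 14 partners in maintenance and targeting, 6 were higher and 8 lower in the clones, and none was called. Zfp57, a zinc finger protein that keeps methylation at imprinted regions, was at 170, 182 and 191 RPKM in the clones and at 221, 217 and 219 in EB3 (-0.28 ± 0.09, limma, adjusted p = 0.156). Uhrf2, the paralog of Uhrf1, was at 10.6, 8.24 and 10.2 RPKM in the clones and at 13.3, 12.1 and 12.8 in EB3 (-0.39 ± 0.13, limma, adjusted p = 0.168). Both were lower in every clone than in every EB3 library, and neither passed. The histone methyltransferase genes Setdb1 and Ehmt2 were higher in every clone than in every EB3 library and did not pass either. Setdb1 was at 58.5, 49.4 and 54.4 RPKM in the clones and at 40.4, 47.5 and 47.2 in EB3 (0.26 ± 0.10, limma, adjusted p = 0.245). Ehmt2 differed by 0.21 ± 0.08 (limma, adjusted p = 0.250). Hells, a chromatin remodeller needed for methylation of repeats, was at 76.3, 70.4 and 81.0 RPKM in the clones and at 71.7, 115 and 108 in EB3. Its EB3-0 value thus lay among the clones. The difference was -0.35 with all libraries (limma, adjusted p = 0.340). Without EB3-0 it was called lower (limma, -0.56, adjusted p = 0.0223), in a fit that called 5.99% of all tested genes. Dppa3, which limits the access of UHRF1 to chromatin, was at 14.1, 2.99 and 15.8 RPKM in the clones and at 21.1, 14.6 and 16.1 in EB3. Its low value was that of B8, and the difference of -0.90 ± 0.52 was not called (limma, adjusted p = 0.414).

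On the erasing side, 11 base excision repair genes were tested, of which 4 were higher, 7 lower and 0 called. Smug1, another uracil glycosylase that also acts on oxidised pyrimidines, was higher in every clone, at 13.8, 12.3 and 12.4 RPKM against 8.06, 8.90 and 10.5 (0.47 ± 0.13, limma, adjusted p = 0.123). Of 8 tested genes for TET partners and the supply of 2-oxoglutarate, 5 were higher and 3 lower and 0 were called. Hcfc1, a chromatin cofactor that associates with OGT, differed by 0.33 ± 0.19 (limma, adjusted p = 0.411). Of 7 tested readers of methylated CpG, 5 were higher, 2 lower and 0 called. Zbtb38 had the largest difference there, 0.64 ± 0.28 (limma, adjusted p = 0.284), and its EB3-0 value of 2.46 RPKM was again below the 5.69 of EB3-1 and of EB3-2. Of 11 tested genes of methyl group supply, 4 were higher, 7 lower and 0 called. Mthfd1, an enzyme of folate metabolism, was at 98.8, 107 and 98.0 RPKM in the clones and at 88.8, 82.4 and 82.1 in EB3 (0.26 ± 0.08, limma, adjusted p = 0.167). In the fit without EB3-0 it was called higher (limma, 0.30, adjusted p = 0.0499), beside 5.99% of all tested genes called in that fit.

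Markers of the cell state stood beside these results. Of 8 ES cell markers 0 were called, 2 were higher and 6 lower in the clones, and their median difference was -0.17. Zfp42 had the smallest p among them, at 415, 439 and 419 RPKM in the clones and at 536, 526 and 511 in EB3 (-0.31 ± 0.09, limma, adjusted p = 0.145). Without EB3-0 it was called lower (limma, -0.29, adjusted p = 0.0350), in a fit that called 5.99% of all tested genes. Of 6 tested primed pluripotency markers, 3 were called lower (0.354% of all tested genes were called lower), and all 6 had a lower mean in the clones, with a median of -1.17. This list was drawn up with earlier results of these data known, and the study had already reported Otx2 as lower. Its share of calls is therefore not an independent measure of the cell state. Fgf5 and T, also on this list of 8, were below the filter and had higher means in the clones. Fgf5 was at 0.223, 0.279 and 0.226 RPKM in the clones and at 0.147, 0.164 and 0.368 in EB3. T was at 0.448, 0.474 and 0.363 RPKM in the clones and at 0.143, 0.493 and 0.412 in EB3. For both genes the groups overlapped. Otx2, a homeobox factor of the primed state, was at 2.96, 3.24 and 2.71 RPKM in the clones and at 9.93, 10.7 and 13.0 in EB3 (-1.75 ± 0.14, limma, adjusted p = 0.00378). Lef1, a transcription factor of the Wnt pathway, fell by 1.29 on the log2 scale (limma, adjusted p = 0.0216) and Fgf15, a secreted growth factor, by 1.06 (limma, adjusted p = 0.0283). The Lef1 and Fgf15 calls were lost with EB3-1 and EB3-2 averaged as 1 library (limma, adjusted p = 0.120 and 0.130), with no filter on low values (0.0518 and 0.0634), and when any library but EB3-0 was left out (lowest adjusted p 0.0508 for Lef1 and 0.0639 for Fgf15). The Otx2 call held in each of these fits, with an adjusted p of 0.0210 (limma) when the 2 libraries were averaged. Dnmt3l and Dnmt3b are themselves known to change between the naive and primed states, and whether the marker change has a part in the Dnmt3l values was not tested.

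**Figure D5:**
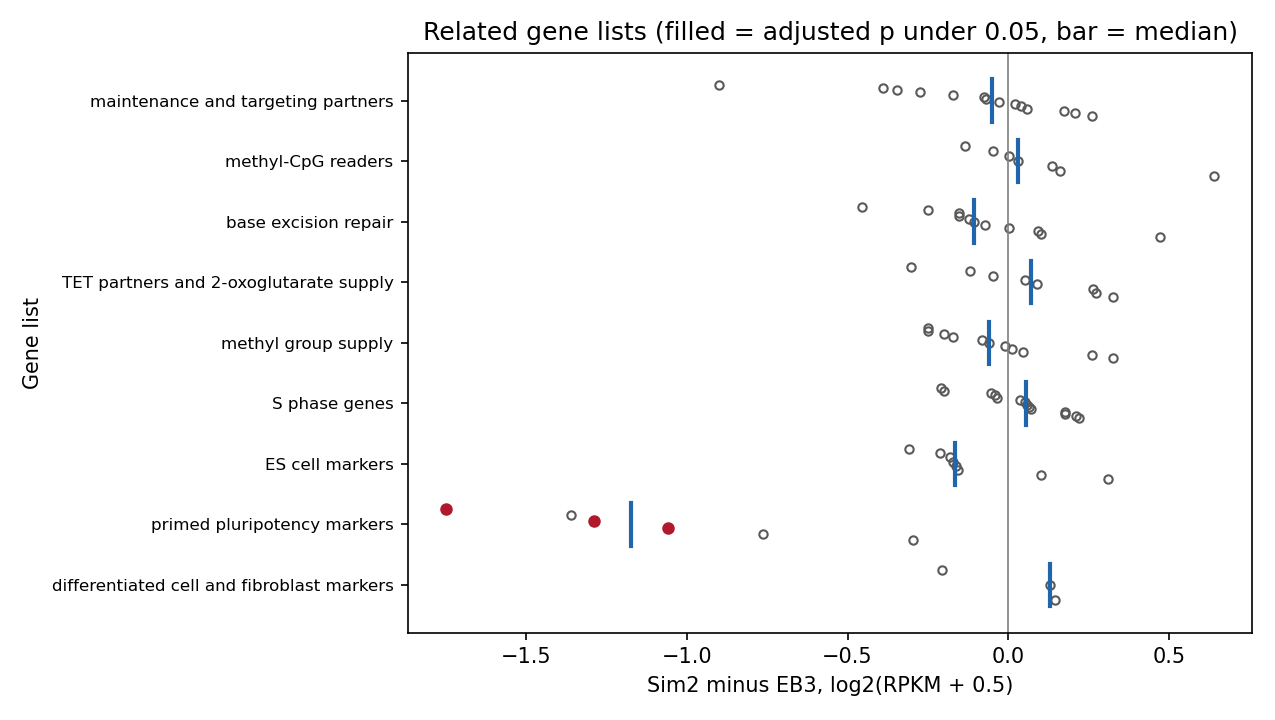
Difference between the Sim2 clones and EB3 in log2(RPKM + 0.5) for every tested gene of 9 related lists, with called genes (adjusted p under 0.05) filled in red and the list median as a blue bar. 3 genes, all primed pluripotency markers, are called, and the medians of the other 8 lists lie between -0.17 and 0.13.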

How the data were processed

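The authors mapped paired reads to mm9 with BWA at default parameters, summed exon coverage over each RefSeq gene by their own pipeline, and deposited the RPKM of 6 libraries; the aligner version, strand setting and treatment of ambiguous reads were not given in the sources used here. RPKM are not counts, so the test was run on their log2 scale, and no count model was run on the reads recovered below. Each value was a whole multiple (within 0.1) of its library's step for 100% of values above 0, which gave the recovered reads per library (25095861 to 28269340). Genes averaging 1 RPKM or more (11595 of 22602) were tested on log2(RPKM + 0.5) with limma 3.58.1 (R 4.3.3, lmFit, eBayes with trend), with all 6 libraries, no covariate and Benjamini-Hochberg adjustment; the fit was tested on simulated data. Differences are Sim2 minus EB3. Transcript copies were sought in the mm9 genome with blastn 2.17.0. Alternatives covered pseudocounts, filters, scalings, removal of trends with natural splines of 5 degrees of freedom (96.1% of tested genes had a GC value), and each library left out. Named were all members, at most 5 called genes per list, the genes most like Dnmt3l, and, chosen after their values were seen, the other genes given with values. The members and lists were chosen with earlier results of these data known. The number of sample columns not used was 0.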

Additional observations from a re-analysis of the deposited data

How the results depend on the processing

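0 of the 7 tested members were called with all settings except the removal of the cDNA length trend and that of the GC content and length trends, which each called 1, Dnmt3l. Dnmt3l and Dnmt3b kept their direction in all 16 alternatives. The direction turned for Dnmt1 (-0.061) and Uhrf1 (-0.0040) with GC content and length trends removed, for Tet1 (-0.050) with the length trend removed, and for Tet2 (0.15) with EB3-1 and EB3-2 averaged. When 1 library was left out, Dnmt3a ranged from -0.19 to 0.13 (the latter without B8), Tet1 from -0.25 (without EB3-0) to 0.43, and Tet2 from -0.40 (without EB3-0) to 0.17. The number of all tested genes called, 81 in the main setting, was 28 with no filter on low values, 30 without the trend in eBayes, 6 with EB3-1 and EB3-2 averaged, 289 with the length trend removed and 205 with GC content and length trends removed. It ranged from 6 to 694 when 1 library was left out, the highest without EB3-0. Of the list genes, 3 in the main setting, 1 was called with no filter and 1 with EB3-1 and EB3-2 averaged, and 1 to 7 when 1 library was left out. The 3 ratios kept their direction in every leave-one-out. No paired analysis was possible because the groups share no replicate numbers. With 3 libraries a group, the spread behind the p-values joins that of 3 clones, each 1 culture, with that of 3 cultures of the parental line. It holds no spread between clones on the EB3 side. No cause of the changes with setting was tested.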
